A study of Mus musculus with 29 samples.

Results

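Igf1, the gene of insulin-like growth factor 1, was followed across the brain myeloid cells of mice with an experimental stroke or a sham operation. It was chosen by name, as 1 of 27827 genes with a row in at least 1 of the tables (19704 in young brain, 27514 in aged brain and 16623 in blood), because earlier results of these data had shown it high in some myeloid cells. Its own levels are therefore given as a description, with no test. Single cells were profiled by Drop-seq, in which droplets hold a cell and a barcoded bead, in 18 brain and 11 blood libraries of C57BL/6J mice. Stroke was made by closing the middle cerebral artery for a time and then reopening it.

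Young mice were males of 8 to 10 weeks. Their brain libraries came from sham surgery at day 2 (4 libraries), stroke at day 2 (4 libraries) and stroke at day 14 (4 libraries). Aged mice were 17 to 20 months old and gave 2 sham libraries at day 2 (1 female, 1 male), 3 stroke libraries at day 2 (2 female, 1 male) and 1 female stroke library at day 14. Blood came from young males after sham surgery at day 2 (4 libraries) or after stroke at day 2 (4 libraries) and day 14 (3 libraries), from 2 pooled mice each. A brain library pooled 4 to 5 hemispheres, those on the side of the stroke where one was made, and held sorted CD45high cells, microglia and endothelial cells, so the shares of cell types also depend on the sort. Sham surgery was sampled at day 2 alone, so day 14 stroke and sham cannot be told apart from a difference in time after surgery.

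IGF1 is a secreted peptide that acts through its receptor, the tyrosine kinase encoded by Igf1r, and through hybrids of that receptor with the insulin receptor (Insr). The receptor signals through insulin receptor substrates, phosphoinositide 3-kinase and Akt to mTOR and FoxO, which set growth, protein synthesis and survival. Binding proteins (Igfbp genes) hold IGF1 in extracellular fluid, and proteases release it. In the brain, IGF1 supports neurons, oligodendrocytes and vessels, and microglia and border macrophages are known local sources beside neurons and the circulation.

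The gene lies on the plus strand of chromosome 10, at chr10:87858265-87937042 in GRCm38 (the assembly of the mm10 build), where GENCODE M21 annotates 8 transcripts with 8 different start sites. The sequences below are shown because they are what a count for this gene can and cannot tell apart: the first 2 exons hold coding sequence and are in 8 of 8 transcripts, while the third, in capitals, is an alternative coding exon in 3 of 8 transcripts that changes the carboxy-terminal E peptide of the precursor. Counts per gene did not separate these transcripts.
Exon in every transcript, chr10:87864731-87864887, plus strand, 157 bases: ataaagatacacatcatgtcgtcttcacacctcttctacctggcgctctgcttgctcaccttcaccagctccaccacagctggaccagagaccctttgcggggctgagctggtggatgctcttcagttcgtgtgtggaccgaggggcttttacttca
Exon in every transcript, chr10:87913619-87913800, plus strand, 182 bases: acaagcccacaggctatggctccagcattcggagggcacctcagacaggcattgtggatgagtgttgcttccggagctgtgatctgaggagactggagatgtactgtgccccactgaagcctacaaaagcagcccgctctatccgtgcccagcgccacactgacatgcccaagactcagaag
Alternative exon, chr10:87915298-87915349, plus strand, 52 bases: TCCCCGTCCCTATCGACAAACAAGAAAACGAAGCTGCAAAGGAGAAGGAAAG

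Brain libraries held 1143 to 5121 cells and 819438 to 5855047 counts, the median cell had 321 to 1363 counts, and 91 of 55174 brain barcodes were found in more than 1 library. Igf1 had 4462 counts over 55268 brain cells, and 2323 cells (4.20%) had a value above 0. Levels are given in CPM: the Igf1 count summed over the cells of a type in a library, per 1000000 counts of those cells. Cell types and subtypes are the deposited annotation, whose codes are read here as microglia (Mg), monocyte-derived cells (MdC), border-associated macrophages (BAM), dendritic cells (DC) and endothelial cells (EC). Microglial markers were the highest of 13 marker lists in Mg, monocyte or macrophage markers in MdC and endothelial markers in EC. In BAM the monocyte or macrophage list was the highest, at 15291 summed CPM, ahead of the border macrophage list at 11661 CPM, and in DC the same list exceeded the dendritic one. Igf1 in blood was not analysed here.

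A pair of libraries stood apart. Day 2 stroke replicate 3 held 58 cells annotated as microglia, whose 6 microglial markers summed to 817 CPM, against up to 12466 CPM in the other day 2 stroke libraries. There, 12 of the 58 cells had an Igf1 value above 0, but these values added up to 0.328 counts. Sham replicate 4 had the lowest median depth, 321 counts per cell, and its 52 border-associated macrophages held 0.531 Igf1 counts. Values without these libraries are given beside the differences, shares and sources they touch most.

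In microglia of young mice, the brain's resident macrophages, Igf1 was nearly undetected after sham surgery, low at day 2 of stroke and high at day 14. The sham libraries had 1.01, 3.96, 0 and 3.45 CPM (mean 2.10 ± 1.90, SD, n = 4), together 13.1 Igf1 counts. The day 2 stroke libraries had 26.3, 43.1, 12.5 and 26.1 CPM (27.0 ± 12.5, n = 4). The day 14 stroke libraries had 408, 333, 699.6 and 361 CPM (450 ± 169, n = 4). The libraries of the 3 groups did not overlap: each day 2 library lay above every sham library, and each day 14 library above every day 2 library. The lowest day 2 value, 12.5 CPM in replicate 3, came from 0.328 counts. At that depth its place above sham could not be told.

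The mean level was 12.8-fold higher at day 2 of stroke than after sham surgery, 214-fold higher at day 14 than after sham surgery, and 16.7-fold higher at day 14 than at day 2. When each library was left out in turn these ratios ran from 9.62 to 18.2, from 161 to 303 and from 13.6 to 20.8. On the log2(CPM + 1) scale, which understates the change of low values, these differences were 3.32 ± 0.91, 7.39 ± 0.84 and 4.07 ± 0.60 (pooled SD of the library values, n = 4 per group). Without day 2 stroke replicate 3 they were 3.63 for day 2 against sham and 3.76 for day 14 against day 2. Over the leaving out of each library in turn, the 3 differences ranged from 2.86 to 3.63, from 6.93 to 7.70 and from 3.76 to 4.33.

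Monocyte or macrophage markers in microglia were also higher in both stroke groups than after sham. The list of 6 genes summed to 235 to 394 CPM in the sham libraries, 545 to 4252 CPM at day 2 and 2156 to 3177 CPM at day 14. Unlike for Igf1, the day 2 and day 14 libraries overlapped. Per library, 0 to 4 of the 6 markers were at 0. The microglial list in the same cells was lower after stroke, at 14610 to 21335 CPM after sham, 817 to 12466 CPM at day 2 and 9815 to 13705 CPM at day 14, so neither stroke group overlapped sham. The border macrophage list summed to 30.4 to 39.7 CPM, 8.89 to 223 CPM and 64.3 to 72.9 CPM, with day 14 above sham in every library and 0 to 4 markers at 0. The part of these lists in the Igf1 differences was not tested. In Mg3, the subtype that held most microglial Igf1 at day 14, Lyz2 (lysozyme) made up 2993 CPM of that list, while Ccr2, the receptor that defines inflammatory monocytes, was at 4.39 CPM and Ly6c2 at 14.0 CPM. The border macrophage list in Mg3 summed to 77.0 CPM (76.95) at day 14, with none of its 6 markers at 0, and to 51.3 CPM in 93 sham cells.

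Markers also differed between the 975 Mg3 cells of day 14 with Igf1 and the 2440 without, whose median depths were 1603 and 582 counts. The border macrophage list summed to 114 against 47.4 CPM, with Ms4a7 at 77.1 against 25.6 CPM and Pf4 at 28.5 against 13.3 CPM, while Mrc1, the mannose receptor of these macrophages, was at 5.12 against 5.79 CPM. The monocyte or macrophage list summed to 3452 against 2812 CPM: Fn1, fibronectin, was at 84.9 against 28.5 CPM and Lyz2 at 3330 against 2723 CPM, but Ccr2, Ly6c2, Plac8 and Ms4a4c were lower in the cells with Igf1. Of the 6 microglial markers 5 were lower in them, among them P2ry12 (483 against 999 CPM), Siglech (551 against 1349 CPM) and Tmem119 (288 against 428 CPM), and the list summed to 9892 against 11242 CPM. The part of these markers in the Igf1 level was not tested. In a further setting, microglia that carried Ccr2, Ly6c2, Mrc1, Pf4, Lyve1 or Cd163 were left out. Without them the Igf1 differences were 3.28 at day 2 and 7.29 at day 14 against sham. Ms4a7, Fn1 and Lyz2 were not part of that filter, so these values do not cover them.

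**Figure D1:**
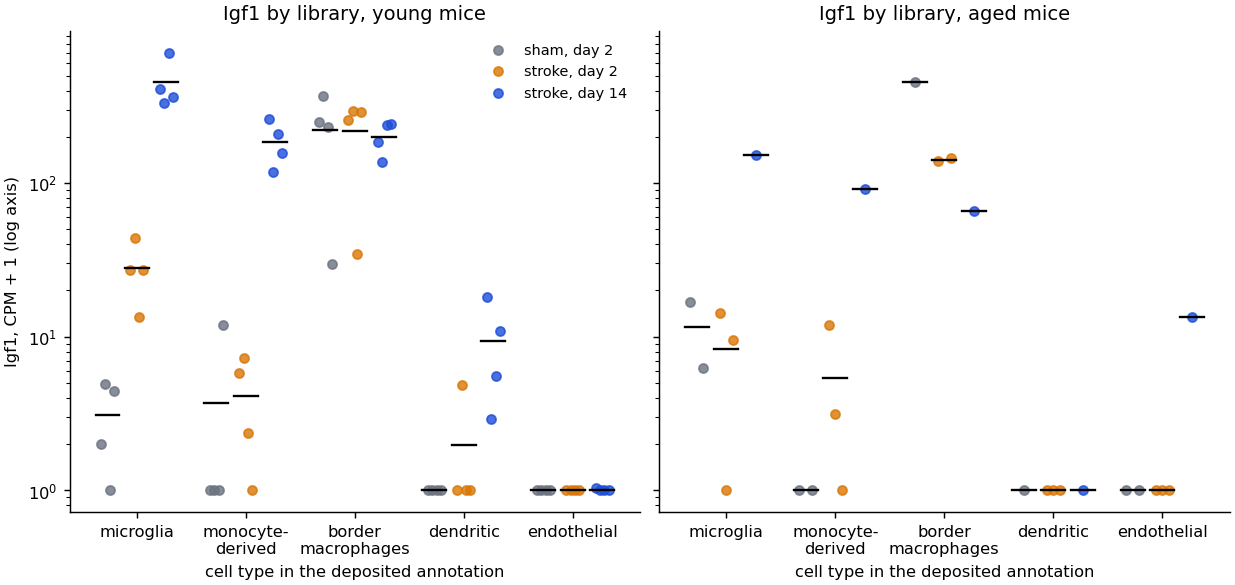
Igf1 level per library (CPM + 1, log axis) in 5 annotated brain cell types of young (left) and aged (right) mice, for library sums of at least 20 cells. Points are libraries and lines their means. In young microglia the day 14 libraries, at 333 to 699.6 CPM, lie above all day 2 and sham libraries, whereas the groups of border-associated macrophages overlap.

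Monocyte-derived cells, which enter the injured brain from blood, had next to no Igf1 at day 2. The day 2 stroke libraries had 4.79, 6.29, 1.38 and 0 CPM (3.11 ± 2.92, n = 4), from 27.0 counts in 7225 cells. The day 14 libraries had 259, 117, 207 and 155 CPM (184 ± 61.7, n = 4), a mean 59.2-fold higher (89.6-fold without day 2 replicate 2), and none overlapped the day 2 libraries. The difference was 5.81 ± 0.99 on the log2(CPM + 1) scale and lay between 5.26 and 6.21 when each library was left out. Sham brains held 318 such cells, whose libraries had 0, 0, 0 and 10.9 CPM. The last value came from 0.199 counts.

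Monocyte-derived cells also carried more microglial marker counts at day 14, where the 6 markers summed to 289 to 1807 CPM per library, than at day 2, where they summed to 270 to 655 CPM (0 to 5 and 0 to 4 of the markers at 0 per library). Border macrophage markers summed to 1154 to 1768 CPM and 1052 to 1750 CPM. Without cells that carried Tmem119, P2ry12, Sall1, Siglech or Gpr34 the Igf1 difference was 5.55. Border macrophage markers were not part of that filter.

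Border-associated macrophages, the resident macrophages of meninges and perivascular spaces, had Igf1 in every group. The sham libraries had 247, 369, 232 and 28.7 CPM (219 ± 141, n = 4). The day 2 stroke libraries had 257, 292, 33.6 and 289 CPM (218 ± 124, n = 4), and the day 14 libraries 183, 136, 238 and 242 CPM (200 ± 50.4, n = 4). All 3 groups overlapped.

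The differences from sham in border-associated macrophages were 0.06 ± 1.58 at day 2 and 0.30 ± 1.19 at day 14 (log2(CPM + 1), pooled SD). The low value of each of the first 2 groups came from sham replicate 4 and day 2 stroke replicate 3, the libraries described above. Without sham replicate 4 the differences were -0.74 and -0.51, and without day 2 stroke replicate 3 the day 2 difference was 0.82. These sums rest on 20 to 282 cells per library, so a change smaller than the spread was not detectable at this depth.

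Ordered by mean level over the young brain groups, microglia at day 14 came first with 450 CPM. Border-associated macrophages followed with 219 CPM after sham, 218 CPM at day 2 and 200 CPM at day 14 (199.6), and then monocyte-derived cells at day 14 with 184 CPM. Libraries of each neighbouring pair among these 5 overlapped, so neighbours in that order did not differ beyond their spread. The next mean was that of microglia at day 2, 27.0 CPM, whose libraries did not overlap the monocyte-derived cells at day 14.

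Other cell types held little Igf1. Dendritic cells had 17.0, 1.94, 4.59 and 9.98 CPM at day 14 (8.38 ± 6.66, n = 4), from 0 in every sham library. Brain granulocytes had a mean of 10.6 CPM at day 14 and B cells of 12.6 CPM after sham, each from 1 library above 0. Endothelial cells, used here as the background type, held 0.748 counts in 7627 cells of all brain libraries.

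The share of microglia with an Igf1 value above 0 was 0.221% after sham (0.167% without replicate 4), 3.60% at day 2 (3.23% without replicate 3) and 23.2% at day 14. At day 14, 0.683% of 1610 endothelial cells had one, at a median depth of 578 counts against 636 counts in microglia. Thinned to 500 counts per cell, the microglial shares were 0.0774% (95% exact binomial interval 0.0211 to 0.198), 1.19% (0.756 to 1.78) and 14.6% (13.4 to 15.9), and that of endothelial cells at day 14 was 0. Thinning left out 5705 of 10874, 760 of 2693 and 1984 of 5170 microglia.

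The corresponding shares in monocyte-derived cells were 0.554% at day 2 and 14.0% at day 14, or 0.0891% (0.0289 to 0.208) and 6.09% (5.12 to 7.19) after thinning. In border-associated macrophages 15.7% of sham cells, 27.7% of day 2 cells and 20.6% of day 14 cells had a value above 0, but after thinning the shares were 11.3% (8.03 to 15.3), 11.3% (7.49 to 16.1) and 8.40% (4.27 to 14.5). No order of the 3 groups is read from these shares. Intervals cover counting error alone, since cells of a library are not independent replicates.

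Among microglia with a value above 0 at day 14, the median value was 1.52 counts, 50.1% were over 1.5 and the highest cell had 30.7 counts. The highest monocyte-derived cell at day 14 had 17.7 counts and the highest border-associated macrophage 2.94 counts. At day 14 the tenth of Igf1-positive microglia with the most counts held 35.4% of all microglial Igf1.

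Within microglia at day 14, most Igf1 was in Mg3, which also held most of the cells. Mg3 had 461, 336, 711 and 495 CPM in the 4 day 14 libraries, 28.6% of its 3415 cells were above 0 (17.4% after thinning), and it held 72.9% of microglial Igf1 with 66.1% of the cells. Its pooled level, 511 CPM, was close to the 457 CPM of all day 14 microglia. Mg7, a small subtype with a median of 4212 counts per cell, had 587, 487, 835 and 438 CPM, 48.8% of its 256 cells were above 0 (23.3% after thinning), and it held 21.6% of microglial Igf1 with 4.95% of the cells and 15.0% (14.96) of the counts. Replicate 4 differed within Mg7: its 90 cells had a median of 277 counts and 6.67% were above 0, against medians of 3961 to 6712 counts and 54.2% to 80.4% of cells in the other 3 libraries. Without it the Mg7 share was 71.7%. Pooled over libraries, Mg4 had 457 CPM, Mg5 340 CPM (339.6) and Mg6 101 CPM. Mg1 and Mg2, which made up most sham microglia, had 17.5 and 24.0 CPM at day 14, with Poisson intervals of 3.33 to 53.1 and 7.58 to 56.8 CPM. Single libraries moved both values: Mg1 was at 0 CPM without replicate 3, and Mg2 was at 15.1 CPM without replicate 3 and 53.7 CPM without replicate 4.

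The subtypes that held Igf1 at day 2 were others. Mg4 had 60.8 CPM (49.1 to 74.5) and held 74.3% of microglial Igf1 at day 2 with 38.4% of the cells, and Mg5 had 9.85 CPM (6.08 to 15.1). Mg3 was at 39.4 CPM (15.1 to 83.8) in 133 cells at day 2 and at 50.4 CPM (8.68 to 159) in 93 sham cells, from 2.57 counts. Without day 2 replicate 4, Mg3 was at 91.0 CPM (90.97). Per library, Mg3 had 14.8 to 104 CPM at day 2 and 336 to 711 CPM at day 14, Mg4 13.5 to 94.8 CPM and 143 to 789 CPM (8 to 20 cells per library at day 14), and Mg5 0 to 10.8 CPM and 176 to 413 CPM, so in these 3 subtypes the libraries of the 2 days did not overlap.

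Among monocyte-derived cells, MdC6 stood above the other subtypes. Its day 14 libraries had 497, 282, 382 and 365 CPM, 36.5% of its 985 cells were above 0 (14.9% after thinning), and it held 92.0% of the Igf1 of all monocyte-derived cells with 34.0% (33.99) of the cells and 46.0% (45.98) of the counts. The pooled levels of MdC1 to MdC5 at day 14 ran from 16.9 CPM in MdC5 to 118 CPM in MdC2. The MdC2 value rested on 4 cells, with 213, 131, 29.4 and 0 CPM in the 4 libraries, and was 45.6 CPM without replicate 1. All 8.04 Igf1 counts of MdC1, which had 106 CPM (105.6), came from replicate 3. At day 2 MdC6 had 36.8 CPM (14.2 to 77.8), with 9 of 201 cells above 0, and MdC1 5.13 CPM (2.84 to 8.52). These values were 13.6 CPM without replicate 2 and 1.75 CPM without replicate 1. The other 4 subtypes were at or under 1.33 CPM.

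Among border-associated macrophages, BAM1 had 427 CPM (426.5) after sham (343 to 525), 388 CPM at day 2 (287 to 512) and 381 CPM at day 14 (247 to 562). BAM3 had 528 CPM after sham (312 to 835) and 359 CPM at day 2 (221 to 551). Without day 2 replicate 4, which held most of these cells, BAM1 was at 176 CPM and BAM3 at 575 CPM at day 2. BAM2 was far lower, at 11.4 CPM after sham (0.679 to 51.7), 5.25 CPM at day 2 and 39.2 CPM at day 14 (11.2 to 98.1). Leaving out 1 library, BAM2 ranged from 4.07 CPM (without replicate 3) to 19.8 CPM (without replicate 2) after sham, and from 0 CPM (without replicate 3) to 10.1 CPM (without replicate 4) at day 2. BAM2 also differed in markers: its border macrophage list summed to 3018 CPM after sham, against 17758 CPM in BAM1, and over all young groups Ccr2 was at 1702 CPM in BAM2 and 4.73 CPM in BAM1.

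**Figure D2:**
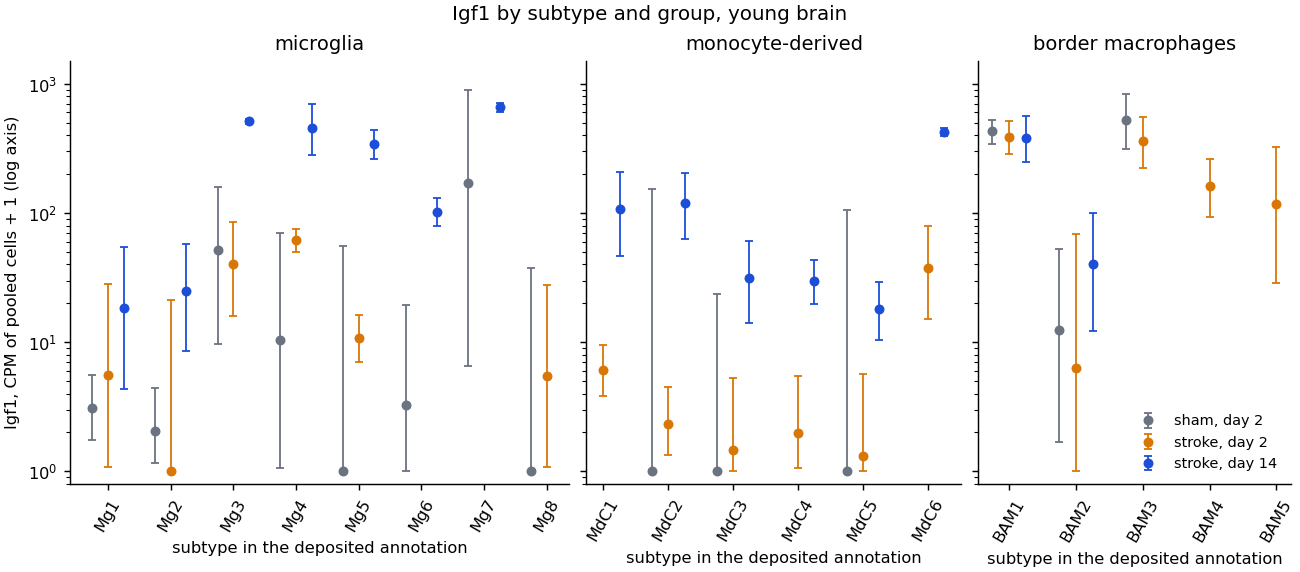
Igf1 level by annotated subtype in young brain (CPM of all cells of a subtype and group pooled, plus 1, log axis), for at least 20 cells. Bars are 95% Poisson intervals of the summed count and cover counting error alone. Mg3 and Mg7 at day 14 lie at 511 and 659.6 CPM, MdC6 at 421 CPM and BAM1 at 381 to 426.5 CPM in every group, while BAM2, Mg1 and Mg2 stay under 50 CPM.

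The subtype make-up of microglia changed between days, so the pooled level was recomputed with one part held fixed. From day 2 to day 14 it went from 28.4 to 457 CPM. With the day 14 subtype mix but day 2 levels it would have been 55.7 CPM, and with the day 2 mix but day 14 levels 344 CPM. For monocyte-derived cells the pooled level went from 2.92 to 211 CPM, with 17.4 CPM for the day 14 mix at day 2 levels and 86.3 CPM for the day 2 mix at day 14 levels. From sham to day 2, microglia went from 2.33 to 28.4 CPM, against 5.99 and 7.25 CPM for the corresponding exchanges. Some levels in these exchanges rest on few cells. At day 2 Mg6 and Mg7 had 8 and 6 cells, but these subtypes made up 10.4% and 15.0% of the day 14 microglial counts. The 8 Mg6 cells also set the level for 4.76% of the sham counts. At day 14 MdC1 and MdC2 had 58 and 110 cells, but 30.7% and 30.8% of the day 2 counts of monocyte-derived cells. No part is assigned to mix or to level. The subtypes were annotated from the same expression values, and whether Igf1 entered that annotation was not tested.

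In MdC6 cells at day 14 the monocyte or macrophage list summed to 40934 CPM, the microglial list to 2203 CPM and the border macrophage list to 2003 CPM. Lyz2 made up 39320 CPM of the first list, with Ly6c2 at 803 CPM and Ccr2 at 161 CPM. That list was also the highest in border-associated macrophages, so its sum alone does not name the type. Ms4a7 was at 1520 CPM, against 1439 CPM in BAM1 over all young groups. Mrc1 (13.9 against 5469 CPM) and the other border macrophage markers were lower than in BAM1. The 360 MdC6 cells with Igf1 and the 625 without differed in depth, with a median of 2524 against 931 counts. Of the 6 genes of the monocyte or macrophage list, 5 were lower in the cells with Igf1: Ccr2 (48.0 against 292 CPM), Ly6c2 (358 against 1315 CPM), Plac8 (115 against 319 CPM), Fn1 (52.7 against 122 CPM) and Ms4a4c (248 against 477 CPM). Lyz2, the most abundant of them, was higher (42554 against 35592 CPM), and so was the summed list (43376 against 38117 CPM). Tmem119, a microglial membrane protein, was at 39.1 CPM in the former and 26.9 CPM in the latter, against 366 CPM in Mg3, and Sall1, a transcription factor of microglia, was at or near 0 in both. Doublets of a microglial and a monocyte-derived cell were not called, so their part in these values was not tested.

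The cell type that held most brain Igf1 counts differed between groups. Of the pooled sham counts, border-associated macrophages held 88.7% and microglia 10.3%, although border-associated macrophages were 1.37% to 5.98% of the cells of those libraries. Sham replicate 4 differed, with 10.5% in border-associated macrophages and 85.5% in microglia, and without it the pooled shares were 92.0% (91.996) and 7.20%. At day 2 of stroke microglia held 51.4%, border-associated macrophages 36.8% and monocyte-derived cells 11.1%, but the libraries differed widely, with 4.62% to 62.4%, 11.8% to 49.4% and 0% to 61.1%. Replicate 4 gave 141 Igf1 counts, against 53.3, 41.8 and 7.09 in replicates 1 to 3. Without it the pooled shares were 52.4%, 19.4% and 26.4%, without replicate 3 they were 52.8%, 36.9% and 9.59%, and without replicate 1 monocyte-derived cells held 7.18%. At day 14 microglia held 75.7%, with 64.6% to 87.6% per library, monocyte-derived cells 22.7% and border-associated macrophages 1.03%. These shares follow the number of cells sorted, their depth and their level together.

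**Figure D3:**
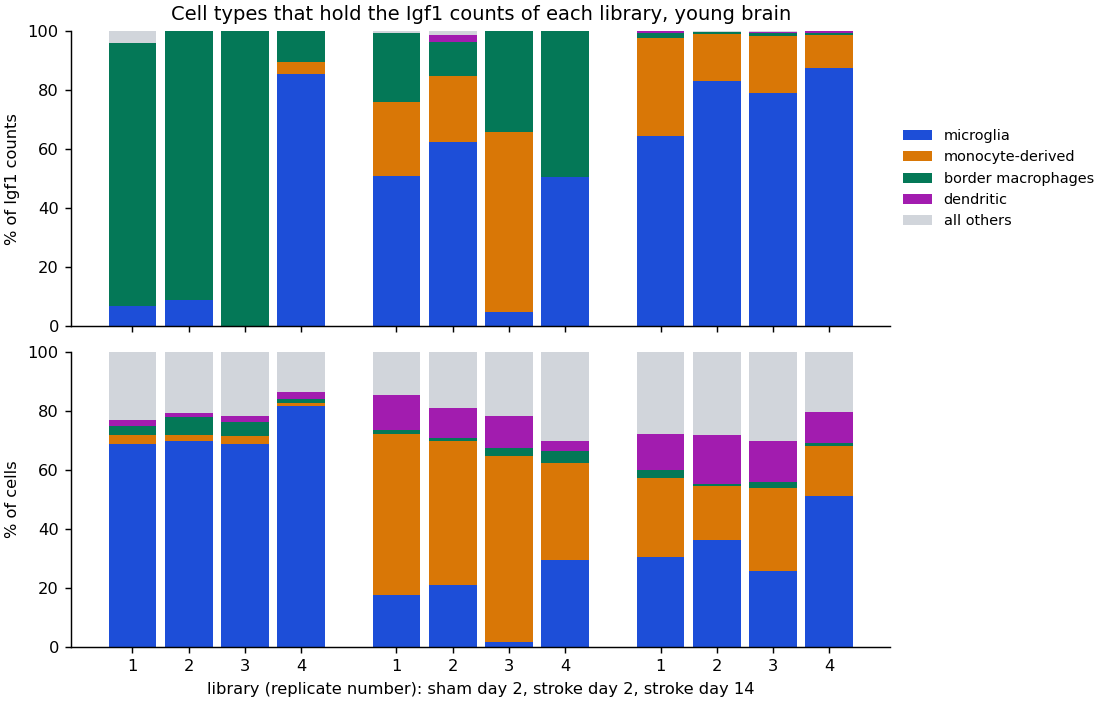
Share of each young brain library's Igf1 counts by annotated cell type (top, percent) and share of its cells (bottom, percent), for replicates 1 to 4 of sham, day 2 stroke and day 14 stroke from left to right. Border-associated macrophages hold most Igf1 in 3 of 4 sham libraries at under 6% of cells, and microglia hold 64.6% to 87.6% at day 14.

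In aged mice the numbers of libraries were smaller and no group comparison of Igf1 was tested. Aged sham microglia had 15.9 CPM in the female library (10.4 to 23.3, 95% Poisson interval) and 5.28 CPM in the male library (0.594 to 19.6), the latter from 1.91 counts. The male value could not be told apart from the highest young sham library, at 3.96 CPM, at this depth. Aged microglia at day 2 of stroke had 13.4, 0 and 8.57 CPM, which overlapped aged sham (10.6 ± 7.51, n = 2, against 7.31 ± 6.77, n = 3). The difference was -0.997 ± 1.63 on the log2(CPM + 1) scale and ran from -1.74 to 0.19 when each library was left out.

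The 1 aged library at day 14 had 152 CPM in microglia (132 to 175, 95% Poisson interval), 91.0 CPM in 87 monocyte-derived cells (30.4 to 209) and 65.2 CPM in 83 border-associated macrophages (25.8 to 136). The microglial value lay below the 4 young day 14 libraries and above all aged and young libraries of day 2. Age was confounded with sex there, since young mice were all male and this library was female, and with 1 library no test was made. Mg3 held 88.7% of its microglial Igf1, at 185 CPM, and Mg7 had 506 CPM (505.6) in 19 cells. Aged border-associated macrophages had 456 CPM in 96 female sham cells and 211 CPM (210.5) in 13 male sham cells. At day 2 of stroke they had 138 CPM in 55 cells, 0 CPM in 6 cells and 144 CPM in 42 cells.

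The receptors, binding proteins and signalling genes of the pathway were taken from a list of 47 genes, of which 40 had a row in the young brain tables. Counts were tested with edgeR's quasi-likelihood test on sums per library, with p-values adjusted over all genes tested in the cell type and a gene called at an adjusted p under 0.05. In microglia at day 2 against sham, 8 of the 28 tested genes were called, 3 higher and 5 lower, where 31.4% of all 10145 tested genes were called, 15.7% in each direction. The share of the list, 28.6%, was near that background. The median log2 fold change of the list was -0.69, and that of all tested genes -0.05.

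Of the receptor and adaptor genes in microglia at day 2, Insr and Irs2 fell and Igf1r did not pass. Insr, the insulin receptor, had 40.5, 16.7, 11.9 and 19.2 CPM in the sham libraries and 4.85, 9.90, 0 and 0.729 CPM at day 2, with no overlap. It fell by 2.27 ± 0.63 on the log2 scale (edgeR adjusted p = 0.016), a call lost without sham replicate 1 (adjusted p = 0.051) or without day 2 replicate 1 (0.061) or 4 (0.059). Igf1r itself had 35.2 to 57.7 CPM after sham and 23.3, 38.0, 0 and 0 CPM at day 2, with a log2 fold change of -1.27 ± 0.80 that did not pass (adjusted p = 0.23). Irs2, an adaptor that couples both receptors to phosphoinositide 3-kinase, went from 32.6 to 4.25 CPM and fell by 2.52 ± 0.63 (adjusted p = 0.0095), a call lost without day 2 replicate 4 (0.052). The subtypes differed between these groups too, since Mg1 was 53.6% of sham and 12.4% of day 2 microglia. Within Mg1 the libraries overlapped for Insr (13.7 to 47.2 and 0 to 26.7 CPM) and Irs2 (20.6 to 33.5 and 13.4 to 31.3 CPM), which rest on 3.30 and 4.25 counts at day 2. Within Mg2 they did not overlap for Insr (13.4 to 35.7 and 0 CPM) or Irs2 (15.9 to 63.5 and 0 to 10.6 CPM). These day 2 values rest on 2 libraries with at least 10 such cells, and on 0 and 1.70 counts in all. In Mg5, Insr was at 0 CPM in 116 sham cells and at 1.36 to 7.07 CPM at day 2, from 5.25 counts in 911 cells. At that depth no direction could be read for Mg5. Igf2r, the mannose 6-phosphate receptor that clears IGF2, was not tested after the filter on low counts: it was at 0 in every sham library, at 1.67 to 14.7 CPM at day 2 and at 2.35 to 6.55 CPM at day 14, from 24.3 and 27.0 counts (26.98).

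Genes below the receptor moved in both directions in microglia at day 2. Pik3r1, a regulatory subunit of phosphoinositide 3-kinase, fell by 1.40 ± 0.29 (287 to 87.3 CPM, adjusted p = 0.0033). Eif4ebp1, a repressor of translation that mTOR inactivates, rose by 1.34 ± 0.27 (44.0 to 118 CPM, adjusted p = 0.0032), and Rheb, the small GTPase that activates mTOR, by 1.15 ± 0.27 (69.3 to 148 CPM, adjusted p = 0.0074). Gsk3b, a kinase inhibited by Akt, fell by 1.02 ± 0.31 (adjusted p = 0.023), a call lost without sham replicate 3 or 4 or day 2 replicate 1 or 4 (adjusted p from 0.065 to 0.10).

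Igfbp6, a binding protein with a preference for IGF2, had the largest change of the list in microglia at day 2. The sham libraries had 1.84, 0.558, 2.16 and 1.60 CPM and the day 2 libraries 21.3, 21.5, 78.0 and 31.7 CPM, with no overlap. The log2 fold change was 4.33 ± 0.66 (edgeR adjusted p = 0.00049), and the gene was called in all 12 alternative fits. Within Mg1 it had 0 to 2.02 CPM after sham and 0 to 38.9 CPM at day 2, and Mg4 at day 2 had 27.5 to 75.2 CPM. At day 2 Igfbp6 was also at 84 CPM (83.8) in monocyte-derived cells and at 611 CPM in brain granulocytes. The neutrophil marker list in microglia summed to 14.7 to 156 CPM at day 2, lower than the 176 to 595 CPM after sham. The monocyte or macrophage list in the same microglia summed to 235 to 394 CPM after sham and 545 to 4252 CPM at day 2, and the library with the most Igfbp6, replicate 3, was the one whose microglial markers summed to 817 CPM. The call held without that library, and the part of these markers in the result was not tested. Igfbp4, which binds IGF1 and limits its action, had 14.1 CPM after sham and 5.31 CPM at day 2 in microglia (log2 fold change -0.75 ± 0.60, adjusted p = 0.35). The means were 8.60 CPM without sham replicate 1 and 3.53 CPM without day 2 replicate 1.

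At day 14, when microglial Igf1 was highest, 3 of 28 genes of the list were called against sham, 1 higher and 2 lower, where 15.2% of all tested genes were called, 10.6% higher and 4.66% lower. Igfbp6 was at 5.06 CPM, higher than sham by 2.25 ± 0.67 (adjusted p = 0.039). Pik3r1 fell by 1.09 ± 0.27 (to 98.9 CPM, adjusted p = 0.016). Both calls were lost in some fits that left out 1 library: Pik3r1 without sham replicate 2 or 4, and Igfbp6 in 6 of the 8. That of Igfbp6 was also lost with library size alone (0.058) and with no filter (0.050). Igf1r was at 24.6 CPM (-0.48 ± 0.70, adjusted p = 0.68), Insr at 9.37 CPM (-0.75 ± 0.49, adjusted p = 0.32) and Igfbp4 at 7.12 CPM (-0.49 ± 0.55, adjusted p = 0.57).

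Scaled by library size alone, the median log2 fold change of all tested microglial genes moved from -0.05 to -0.22 at day 2 and from -0.04 to -0.49 at day 14. The list then had 3 genes called higher and 9 lower at day 2, and 0 higher and 8 lower at day 14. The share of all tested genes called with this scaling is not reported here, so these counts are not read against a background. With DESeq2 the medians of all tested genes were -0.28 and -0.19. The list had 3 genes called higher and 9 lower at day 2 and 1 higher and 3 lower at day 14, likewise without a background from DESeq2. Between day 2 and day 14 of stroke, 1 of 28 genes was called, where 6.93% of all tested genes were called, 3.47% higher and 3.46% lower. Igfbp6 fell by 2.09 ± 0.56 (adjusted p = 0.040), a call lost in 7 of the 8 fits that left out 1 library (adjusted p up to 0.19) and with no filter (0.065). Igf1r (15.3 to 24.6 CPM), Insr (3.87 to 9.37 CPM) and Igfbp4 (5.31 to 7.12 CPM) did not pass (adjusted p = 0.63, 0.18 and 0.88).

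In monocyte-derived cells, 1 of 24 tested genes was called between day 2 and day 14, where 1.79% of 8080 tested genes were called, 0.829% higher and 0.965% lower. Igfbp6 had 58.9, 53.9, 94.7 and 128 CPM at day 2 and 12.02, 12.08, 22.2 and 15.8 CPM at day 14, with no overlap. It fell by 2.48 ± 0.39 (edgeR adjusted p = 0.0051), while Igf1 in the same annotated type was 59.2-fold higher. The type lay in different subtypes on the 2 days: MdC1 was 31.4% and 2.00% of its cells, and MdC6 2.78% and 34.0%. The part of this shift in the fall was not tested. Igf2r went from 28.2 to 12.2 CPM (-1.15 ± 0.57, adjusted p = 0.48).

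Border-associated macrophages had 2 genes of the list that could be tested and 0 called, where 2.67% of 1313 tested genes were called at day 2 (1.75% higher, 0.914% lower) and 0.0762% at day 14, all of it higher. Among all tested genes, 301 and 79 had an unadjusted p under 0.05, and 0 of the list were called by DESeq2. Igfbp4 was high in these cells, with 402, 243, 150.3 and 0 CPM after sham, 284, 173, 13.9 and 149 CPM at day 2 and 208, 337, 38.4 and 42.0 CPM at day 14, with all groups overlapping. Its log2 fold changes were -0.72 ± 0.64 (adjusted p = 0.51) and -0.69 ± 0.69 (adjusted p = 0.93).

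**Figure D4:**
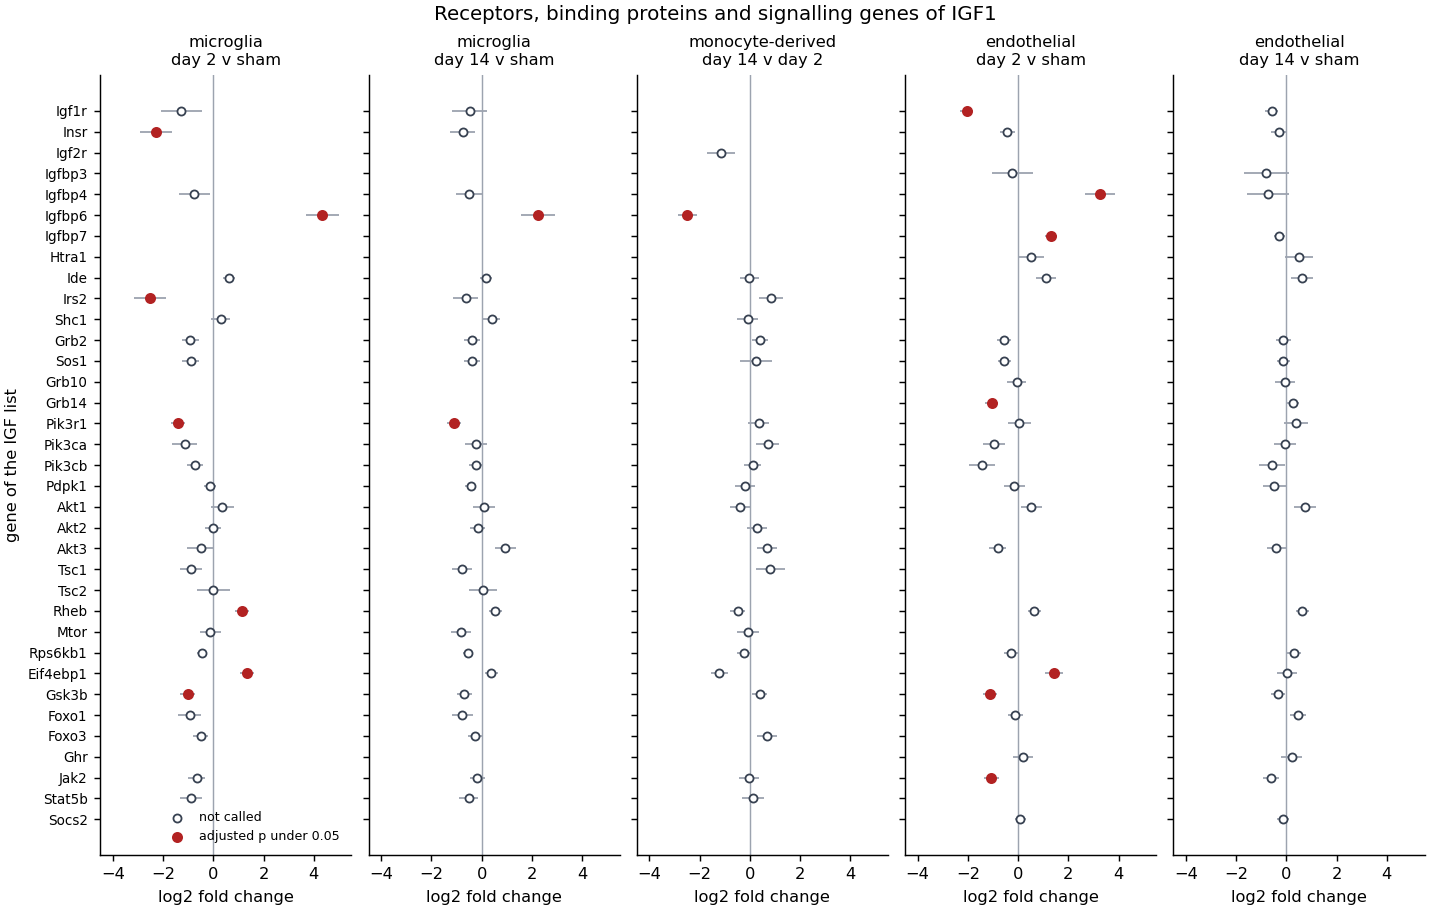
Log2 fold changes (x axis) with standard errors of tested genes of the IGF list, in microglia, monocyte-derived cells and endothelial cells of young mice. Filled points had an adjusted p under 0.05 in edgeR's quasi-likelihood test. Igfbp6 has the largest change in microglia at day 2 (4.33), and Igf1r and Igfbp4 the largest in endothelial cells (-2.05 and 3.25).

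Endothelial cells, which held next to no Igf1, carried the highest Igf1r level among the tested cell types, in CPM not scaled by gene length. After sham, the libraries had 1043, 1264, 1404 and 1278 CPM (1247 ± 150.1, n = 4), and at day 2 of stroke 377, 302, 244 and 223 CPM (286 ± 69.1, n = 4). The groups did not overlap, and Igf1r fell by 2.05 ± 0.25 (edgeR adjusted p = 0.00039), a call that all 12 alternative fits kept. At day 14 the libraries had 904, 769, 579 and 1091 CPM (836 ± 216, n = 4), which overlapped sham, and the log2 fold change of -0.59 ± 0.24 did not pass (adjusted p = 0.78).

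The endothelial cells of the groups lay in different annotated subtypes: EC2 made up 3.04% of them after sham, 40.8% at day 2 and 2.92% at day 14, and EC1 58.1%, 24.7% and 40.8%. Igf1r in pooled EC2 cells was at 914 CPM after sham, in 54 cells, at 150 CPM (149.7) at day 2 and at 478 CPM at day 14. Within EC1 alone, Igf1r had 1558, 1429, 1570 (1570.2) and 1587 CPM after sham and 614, 780.03, 425 and 503 CPM at day 2, again with no overlap. Over libraries of at least 10 cells, sham and day 2 did not overlap in EC2, EC3, EC4 or EC5 either. They did in EC6 (134 to 834 and 69.6 to 362 CPM) and in EC7 (0 to 115 and 0 to 124.5 CPM). These values within subtypes are a description, and the subtypes were annotated from the same expression values.

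The binding proteins Igfbp7 and Igfbp4 rose in endothelial cells at day 2. Igfbp7, a secreted protein of vessel walls, had 4432, 3058, 2376 and 2695 CPM after sham and 9149, 7901, 6831 and 5541 CPM at day 2, with no overlap (log2 fold change 1.32 ± 0.23, adjusted p = 0.0032). Igfbp4 had 31.8, 7.37, 8.46 and 9.91 CPM after sham and 309.5, 98.6, 149.5 and 72.5 CPM at day 2, again with no overlap (3.25 ± 0.61, adjusted p = 0.0040). Both calls held in all 12 alternative fits. Within EC1 the groups overlapped for both: Igfbp7 had 2228 to 4717 CPM after sham and 3977 to 9362 CPM at day 2, and Igfbp4 0 to 6.07 CPM and 0 to 155 CPM. Over libraries of at least 10 cells, Igfbp7 also overlapped in EC3, EC6 and EC7. It did not in EC2 (2212 to 5155 and 7366 to 10470 CPM), EC4 (2860 to 4754 and 5219 to 7365 CPM) or EC5 (2021 to 3993 and 5343 to 9095 CPM). Igfbp4 did not overlap in EC4 (0 to 76.6 and 344 to 2782 CPM) or EC6 (0 and 39.4 to 323 CPM), but did in EC2, EC3, EC5 and EC7. Igfbp4 was highest in EC4 at day 2, at 1233.9 CPM of pooled cells against 62.0 CPM (62.04) after sham. Igfbp3, the main carrier of IGF1 in blood, went from 155 to 123 CPM and did not pass (-0.23 ± 0.82, adjusted p = 0.88). Eif4ebp1 rose by 1.44 ± 0.35 (37.0 to 96.1 CPM, adjusted p = 0.015), a call lost without sham replicate 4 (0.055).

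The other endothelial genes called lower at day 2 were Gsk3b (-1.12 ± 0.27, adjusted p = 0.015), Jak2, a kinase of the growth hormone receptor (-1.06 ± 0.30, adjusted p = 0.028), and Grb14, an adaptor that inhibits the insulin receptor (-1.05 ± 0.26, adjusted p = 0.017). Each was lost when some single libraries were left out: Grb14 in 3, Gsk3b in 4 and Jak2 in 7 of 8 such fits, and Jak2 also with no filter on low counts (0.12). In all, 7 of 26 tested genes were called, 3 higher and 4 lower, where 13.3% of 5833 tested genes were called, 6.89% higher and 6.45% lower. Insr was not among them (87.1 to 59.1 CPM, -0.43 ± 0.29, adjusted p = 0.33).

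The endothelial marker list summed to 18185 to 26545 CPM in the sham libraries and 12882 to 16770 CPM at day 2. Monocyte or macrophage markers in the same cells summed to 521 to 883 CPM and 373 to 1352 CPM, with 1 to 4 of the 6 at 0 per library, and microglial markers to at most 35.6 CPM. Mural cell markers summed to 114 to 566 CPM after sham and 67.9 to 233 CPM at day 2, with a mean of 425 against 123 CPM. Their part in the endothelial changes was not tested. At day 14, 0 of 26 genes were called and 0% of all tested genes, although 356 had a raw p under 0.05. By DESeq2, 9 of all tested genes and 0 of the list were called. Igfbp7 was then at 2576 CPM (-0.28 ± 0.23, adjusted p = 0.95), Igfbp4 at 6.47 CPM, or 1.52 CPM without replicate 1 (-0.74 ± 0.84, adjusted p = 0.98), and Insr at 67.4 CPM (-0.30 ± 0.30, adjusted p = 0.98). Whether the change from sham differed between days was not tested.

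**Figure D5:**
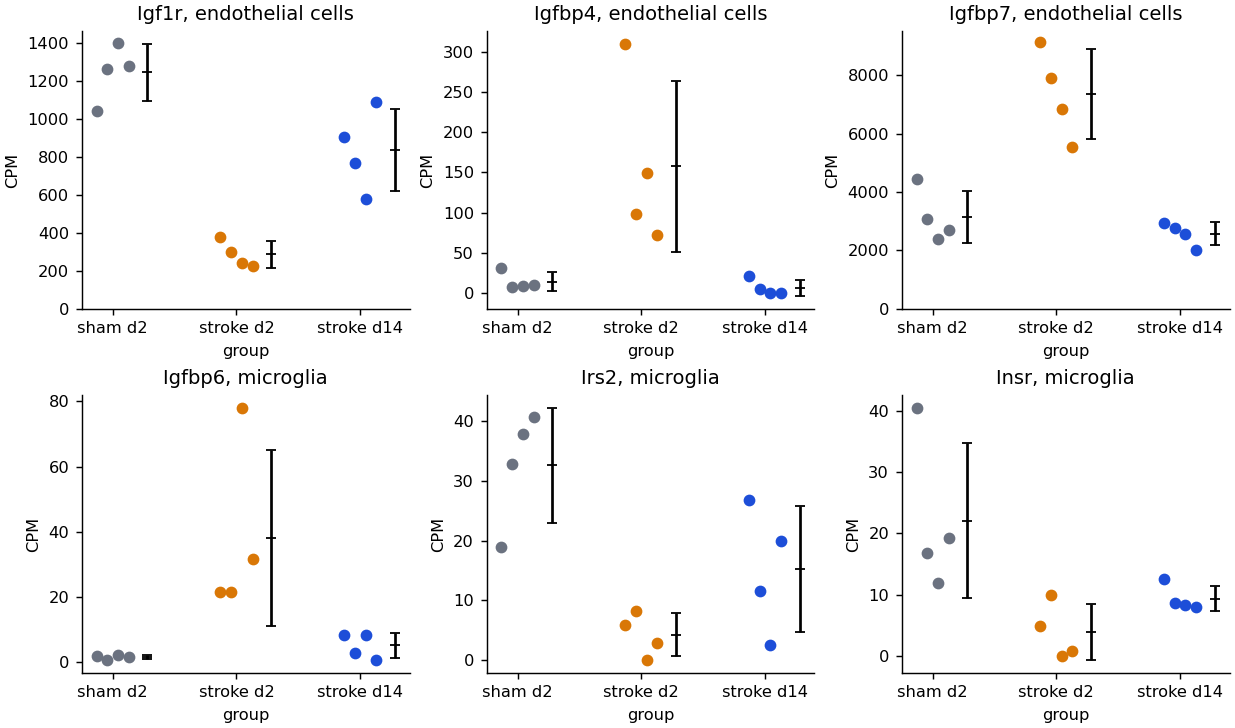
Level per library (CPM) of 3 genes in endothelial cells (top) and 3 in microglia (bottom) of young mice. Points are libraries, and the black marks their mean and SD. Endothelial Igf1r at day 2, 223 to 377 CPM, lies below every sham library, while Igfbp4 and Igfbp7 at day 2 lie above every sham library.

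The fit for aged microglia also held the young sham and young day 2 stroke libraries. In aged microglia, 1 of 29 tested genes was called at day 2 against aged sham, where 2.30% of 11096 tested genes were called, 1.78% higher and 0.523% lower. It was Igfbp6, at 0.304 CPM in sham and 18.8 CPM after stroke (5.10 ± 0.85, adjusted p = 0.0086), a call lost without the female (0.14) or the male (0.057) sham library. Igf1r (41.8 to 13.2 CPM, -1.48 ± 0.91), Insr (10.5 to 3.59 CPM, -1.31 ± 0.89), Igfbp4 (12.9 to 4.29 CPM, -1.76 ± 0.99) and Igf2r (3.07 to 15.9 CPM, 3.11 ± 1.46) did not pass (adjusted p = 0.46, 0.52, 0.41 and 0.32). In blood monocytes, 0 of 21 genes were called at day 14 against sham, where 0.254% of 6706 tested genes were called (0.104% higher, 0.149% lower) and 366 had an unadjusted p under 0.05. DESeq2 also called 0 of these 21.

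Other growth factors were tested from a list of 33 genes, to set Igf1 beside its peers. In microglia at day 2, 5 of 10 tested genes were called, 4 higher and 1 lower, and at day 14 again 5 of 10, 4 higher and 1 lower, beside the backgrounds of 31.4% and 15.2%. The list's median log2 fold changes were 0.32 and 0.46, beside -0.05 and -0.04 for all tested genes. Grn, the lysosomal and secreted protein progranulin, rose by 1.01 ± 0.33 at day 2 (adjusted p = 0.032) and by 1.76 ± 0.33 at day 14 (806 to 1948 CPM, adjusted p = 0.0033). Pdgfa, a growth factor for oligodendrocyte precursors, rose by 0.98 ± 0.31 (adjusted p = 0.028) and 1.71 ± 0.29 (20.6 to 49.1 CPM, adjusted p = 0.0016).

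Gdf15, a stress-induced member of the TGF-beta family, was low throughout (1.93, 11.7 and 15.6 CPM) and rose by 3.27 ± 0.92 (adjusted p = 0.017) and 3.51 ± 0.89 (adjusted p = 0.018). Single libraries carried much of this: its day 2 libraries had 2.91, 14.9, 0 and 29.2 CPM, with a mean of 5.92 CPM and a log2 fold change of 2.14 without replicate 4, and its day 14 mean was 9.95 CPM without replicate 1. The sham mean was 1.13 CPM without replicate 3. Manf, a factor released on stress of the endoplasmic reticulum, rose by 1.26 ± 0.23 at day 2 (254 to 568 CPM, adjusted p = 0.0016) and then fell by 1.29 ± 0.23 between day 2 and day 14 (to 181 CPM, adjusted p = 0.0048). Osm, oncostatin M, was called at day 14 alone (58.8 to 148 CPM, 1.80 ± 0.53, adjusted p = 0.038). Hbegf, a ligand of the EGF receptor, fell by 3.77 ± 0.60 at day 2 (52.6 to 2.29 CPM, adjusted p = 0.00065) and by 1.57 ± 0.45 at day 14 (12.9 CPM, or 8.16 CPM without replicate 4, adjusted p = 0.033).

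Between day 2 and day 14 in microglia, Manf and Hbegf were the 2 of 10 called, beside the background of 6.93%, with Hbegf 2.20 ± 0.60 higher (adjusted p = 0.043). The calls of Hbegf and Manf at day 2, of Grn and Pdgfa at day 14 and of Manf between the days held in all 12 alternative fits. Those of Grn, Pdgfa and Gdf15 at day 2, of Gdf15, Hbegf and Osm at day 14 and of Hbegf between the days were each lost when some single libraries were left out (adjusted p up to 0.16). Other settings lost Pdgfa at day 2 (DESeq2 0.12, library size alone 0.055, no filter 0.052), Grn at day 2 (no filter 0.072), Osm (library size alone 0.066) and Hbegf between the days (no filter 0.057, replicate block 0.063). In monocyte-derived cells 1 of 12 was called between day 2 and day 14, Manf, which fell by 1.10 ± 0.25 (405 to 194 CPM, adjusted p = 0.034), a call lost in 7 of 8 fits without 1 library. In border-associated macrophages 0 of 3, in aged microglia 0 of 11 and in blood monocytes 0 of 4 were called at the backgrounds given above.

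The genes whose levels were most like those of Igf1 were ranked by Pearson's r of log2(CPM + 1), over 48 sums of a library and a myeloid type (microglia, monocyte-derived cells, border-associated macrophages, dendritic cells) of young brain. There were 8640 genes that averaged 10 CPM or more. Genes with Gm or Rik names, mitochondrial genes and ribosomal protein genes among them were left out of the ranking. The 8 highest of the rest were Adam33 (0.82), Folr2 (0.81), Nrp1 (0.81), Apoe (0.78), Cd63 (0.77), C4b (0.73), Cp (0.72) and Arhgap19 (0.72). The 48 points share libraries, depth and 4 cell types, and the values are a description with no test. Folr2, a folate receptor of resident macrophages, had 208, 385 and 275 CPM in border-associated macrophages in the 3 groups and 1.49, 7.24 and 33.9 CPM in microglia. Apoe, the main apolipoprotein of the brain, had 993, 2677 and 53325 CPM in microglia and 41195, 38456 and 47326 CPM in border-associated macrophages.

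Over the 12 microglial libraries alone there were 8869 such genes, and the same kinds were left out. The 8 of the rest most like Igf1 were Cst7 (0.98), Folr2 (0.96), Lgals3bp (0.96), Dpp7 (0.96), H2-Q7 (0.95), Itgax (0.95), Samd9l (0.94) and Sash1 (0.94). These libraries fall into the 3 groups, so the values rest on the differences between groups. Cst7, a cysteine protease inhibitor of activated microglia, had 15.4 CPM after sham, 184 CPM at day 2 and 1820 CPM at day 14, and 31.1 CPM in monocyte-derived cells at day 14. Itgax, the integrin CD11c, had 2.19, 8.94 and 70.3 CPM in microglia. Lgals3bp, a secreted glycoprotein that binds galectins, had 54.7, 241 and 1068 CPM. Folr2 was in both lists of 8.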

How the data were processed

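Single-cell expression was measured by Drop-seq in 29 mouse libraries. Per the labels, brain tissue was digested with papain in the presence of actinomycin D and sorted. The authors deposited expected counts per gene and cell, which are fractional; the step that made them so is not given in the sources used here. Of the Igf1 values above 0, 8.01% were below 0.5. The submitters' processing notes name mm10 and Seurat, with no versions. The deposited annotation gave types and subtypes, all deposited cells were kept and no doublet caller was run.

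The members, gene lists and tests were chosen with earlier results of these data known. Counts were summed per library and type (at least 20 cells), rounded for testing, and fitted with edgeR 4.0.16. Settings were the quasi-likelihood test, TMM scaling, filterByExpr and Benjamini-Hochberg adjustment, two-sided. Fits ran over the 3 young brain groups or the 3 blood groups. For aged microglia the fit held the sham and day 2 stroke groups of both young and aged brain. Its p-values therefore also draw on the spread of young libraries. The fit was tested on simulated data. Libraries are pools labelled as replicates, so p-values measure the spread between pools. Alternatives were DESeq2 1.42.0, library size alone, no filter, a replicate block and leaving out each library. Named genes were Igf1, called list members (up to 6 per list and comparison with the largest change), Igf1r, Insr, Igf2r, Igfbp4 and Igfbp7 where tested, and the 8 genes most like Igf1. Shares above 0 were also computed after thinning to 500 counts per cell, with exact 95% binomial intervals. Replicate numbers were not taken to pair libraries, and whether libraries of the same number share a batch was not tested. The values of some genes counted in the lists are not reported here.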

Additional observations from a re-analysis of the deposited data

Results flagged for a closer look

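Of 96 groups of 4 libraries examined for Igf1 and the named genes, 10 held a library that lay far from the other 3, where chance gives about 5% of groups. For Igf1 these were day 2 stroke replicate 3 in border-associated macrophages (33.6 CPM, others 257 to 292 CPM), day 2 stroke replicate 2 in dendritic cells (3.85 CPM, others 0) and sham replicate 4 in monocyte-derived cells (10.9 CPM, others 0).

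Sham replicate 1 was the high library for 3 genes. It had 1194 CPM of Grn (others 667 to 688 CPM), 30.7 CPM of Igfbp4 (others 8.36 to 8.80 CPM) and 27.6 CPM of Pdgfa (others 17.6 to 19.0 CPM) in microglia, and 31.8 CPM of Igfbp4 in endothelial cells (others 7.37 to 9.91 CPM).

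In microglia, Eif4ebp1 was high in day 14 stroke replicate 3 (59.8 CPM, others 33.2 to 37.6 CPM) and Insr in day 14 stroke replicate 1 (12.5 CPM, others 7.98 to 8.64 CPM). Pdgfa was at 0 CPM in day 2 stroke replicate 3, the library with 58 microglia, against 34.7 to 41.7 CPM in the others.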

How the results depend on the processing

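The Igf1 differences stayed within 1 SD in 53 of 53 fits that left out 1 library and in 38 of 42 other settings. With 4 libraries in each group, leaving out 1 cannot move a difference by 1 pooled SD. For young mice the first count was therefore fixed in advance. The sign was not stable in border-associated macrophages, from -0.74 to 0.82 at day 2 and from -0.51 to 0.71 at day 14. In aged microglia the difference ran from -1.74 to 0.19. With a pseudocount of 5 the microglial differences were 2.12 at day 2 and 5.98 at day 14 against sham, and that of monocyte-derived cells was 4.56; with counts rounded up, microglia at day 14 against day 2 had 3.31. Thinned shares were 0.0774% in sham microglia, 0.0891% and 6.09% in monocyte-derived cells at days 2 and 14, and 11.3%, 11.3% and 8.40% in border-associated macrophages. Counting cells at 0.5 or more, chosen after seeing the data, gave 0.332% in monocyte-derived cells and 17.6% in border-associated macrophages at day 2. Leaving out each library for the shares, sources, subtype levels and ratios of Igf1 and for the mean levels of named genes, and the levels within subtypes, were also added after seeing the data. The planned Igf1 difference in blood monocytes could not be run.

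Counts of called genes changed by over 1.5 times with library size alone (IGF list in microglia 8 at day 14 and 3 between days; other growth factors 1 in aged microglia), DESeq2 (IGF list 2 in monocyte-derived cells; other growth factors 1 in aged microglia) and no filter (IGF list 1 in blood monocytes). Replicate numbers were not taken to pair libraries. With group means removed, same-number libraries of microglia correlated at -0.29 to 0.55, over 0.1 in 5 of 12 pairs, and others at -0.54 to 0.39. The ranges were -0.08 to 0.76 and -0.64 to 0.53 in monocyte-derived cells, and -0.27 to 0.42 and -0.54 to 0.48 in blood monocytes. A shared batch was not tested. With a replicate block the IGF list had 2 calls in monocyte-derived cells, and other growth factors had 5 there and 1 in microglia between days. The shares of all genes called in these settings are not reported here.

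Leaving out 1 library, IGF calls ranged in microglia from 5 to 10 at day 2, from 0 to 4 at day 14 and from 0 to 3 between days, in endothelial cells at day 2 from 4 to 8 and in aged microglia from 0 to 1. Other growth factor calls ranged in microglia from 2 to 5 at day 2, from 2 to 5 at day 14 and from 1 to 4 between days, in border-associated macrophages at day 2 from 0 to 1 and in monocyte-derived cells from 0 to 1. Without day 2 stroke replicate 4 the microglial counts at day 2 were 5 and 2 for the lists. Without sham replicate 3 or 4 the endothelial count was 4, and without either aged sham library the aged count was 0. At day 14, microglial IGF calls were 0 without sham replicate 2 or 4 and 1 without sham replicate 3 or day 14 replicate 1 or 3; growth factor calls were 2 or 3 without any one sham library or day 14 replicate 1, and at day 2 also 3 without sham replicate 2, 3 or 4. Between days, IGF calls were 3 without day 14 replicate 3 and 0 in 6 others of the 8 fits. There, growth factor calls were 4 without day 14 replicate 2 and 1 without day 14 replicate 3 or 4 or day 2 replicate 4. In monocyte-derived cells the growth factor count was 0 in 7 of 8 fits, and in border-associated macrophages 1 without sham replicate 1. The shares of all genes called in these fits are not reported here, so these counts are not read against a background. The cause was not tested. No called gene changed direction.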
